A study of Mus musculus with 6 samples.

Results

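The 42 genes described here encode the glycolytic pathway of skeletal muscle, the carriers of glucose and lactate, and the enzymes that build and break down glycogen. They were picked by gene symbol for their roles, with earlier results of these data known, from 24421 genes listed in the count files, and all 42 symbols were found. Of these, 41 passed the expression filter that kept 14180 genes for testing. Eno1, the symbol of the ubiquitous enolase and also an older name of Eno1b, did not pass, with 1 count in 1 library and 0 in the other 5.

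The transcripts of gastrocnemius/plantaris (GP) muscle were profiled by bulk RNA-Seq. GP is a mixed and largely fast calf muscle, and it was taken from 3 mice labelled Ctrl and 3 labelled cKO. Ctrl mice carried the floxed Net39 allele (Net39 fl/fl) and no Cre, and cKO mice carried the same allele with HSACreERT2, a tamoxifen-inducible Cre driven by a skeletal muscle actin promoter that is active in muscle fibers and spares satellite cells. Both groups are labelled as male, B6C3F1 and 5 months of age, and both were sampled 3 months after tamoxifen, so both share the floxed allele and the drug. Net39, also called Ppapdc3, encodes a muscle-specific protein of the nuclear envelope.

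The targeted gene goes against the labels. Ppapdc3 had 310, 321 and 217 counts in the Ctrl-labelled libraries 1, 2 and 3 and 5365, 4340 and 6080 counts in the cKO-labelled libraries 1, 2 and 3, a log2 fold change of 4.22 (SE 0.17, adjusted p = 0.000161, edgeR). Net39 was thus high in every cKO-labelled library and low in every Ctrl-labelled one. Groups were kept as labelled, each direction below compares cKO-labelled with Ctrl-labelled libraries, and each direction would turn if the labels were exchanged. Library totals ran from 33860001 to 38201728 counts in the Ctrl-labelled libraries and from 39191239 to 48839910 in the cKO-labelled ones. Levels are CPM, counts divided by library size and scaled by TMM factors, n = 3 libraries per group, and a gene passed the test at an adjusted p under 0.05 in edgeR's quasi-likelihood test over all 14180 genes.

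Glycolysis splits glucose into pyruvate in the cytosol, and fast type IIb fibers rely on it most, reducing the pyruvate to lactate. These fibers also hold glycogen, a branched glucose store that phosphorylase cleaves when contraction or adrenaline activates phosphorylase kinase. Most steps are catalyzed by one of several isoforms, among which a muscle form predominates in fibers.

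Across the pathway, Aldoa, Pfkm, Eno3, Pkm, Ldha and Pygm, which are abundant in muscle, were higher in the cKO-labelled libraries, whereas Hk2, Slc2a4, Gys1 and Pgam2 did not pass the test. Pfkl, Hk1 and Pgam1, which are minor here, were lower, whereas the minor Pfkp, Aldoc and Pygb did not pass and the minor Slc2a3 rose. Of the 41 genes tested, 19 rose in the cKO-labelled libraries, against 12.6% of all genes tested. Another 8 were higher in the Ctrl-labelled libraries, against 11.8% of all genes, and 14 did not pass. With a fold change over 2 also required, 14 were higher in the cKO-labelled libraries, against 2.13% of all genes, and 2 (Ldhb and Slc2a1) were higher in the Ctrl-labelled ones, against 3.92%. The groups did not overlap in 30 of the 41, against 43.9% of all genes. The median log2 fold change was 0.64 for the 41 genes and -0.015 for all genes tested. Passing calls came from every step: 2 higher and 1 lower of 5 carriers, 4 and 2 of 10 upper glycolytic genes, 1 and 1 of 4 fructose bisphosphate regulators, 5 and 2 of 9 lower glycolytic genes, 3 and 2 of 8 glycogen synthesis genes, and 4 and 0 of 5 glycogen breakdown genes. Scaling by total counts alone moved the median of all genes to -0.27 and that of the 41 genes to 0.38, with 18 higher against 4.75% of all genes and 10 lower against 28.7%, and left 6 rather than 14 past 2-fold and higher, against 1.11%. Of the 27 genes called, 12 kept their call with each library left out in turn. The counts of those fits are given in the closing section.

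**Figure D1:**
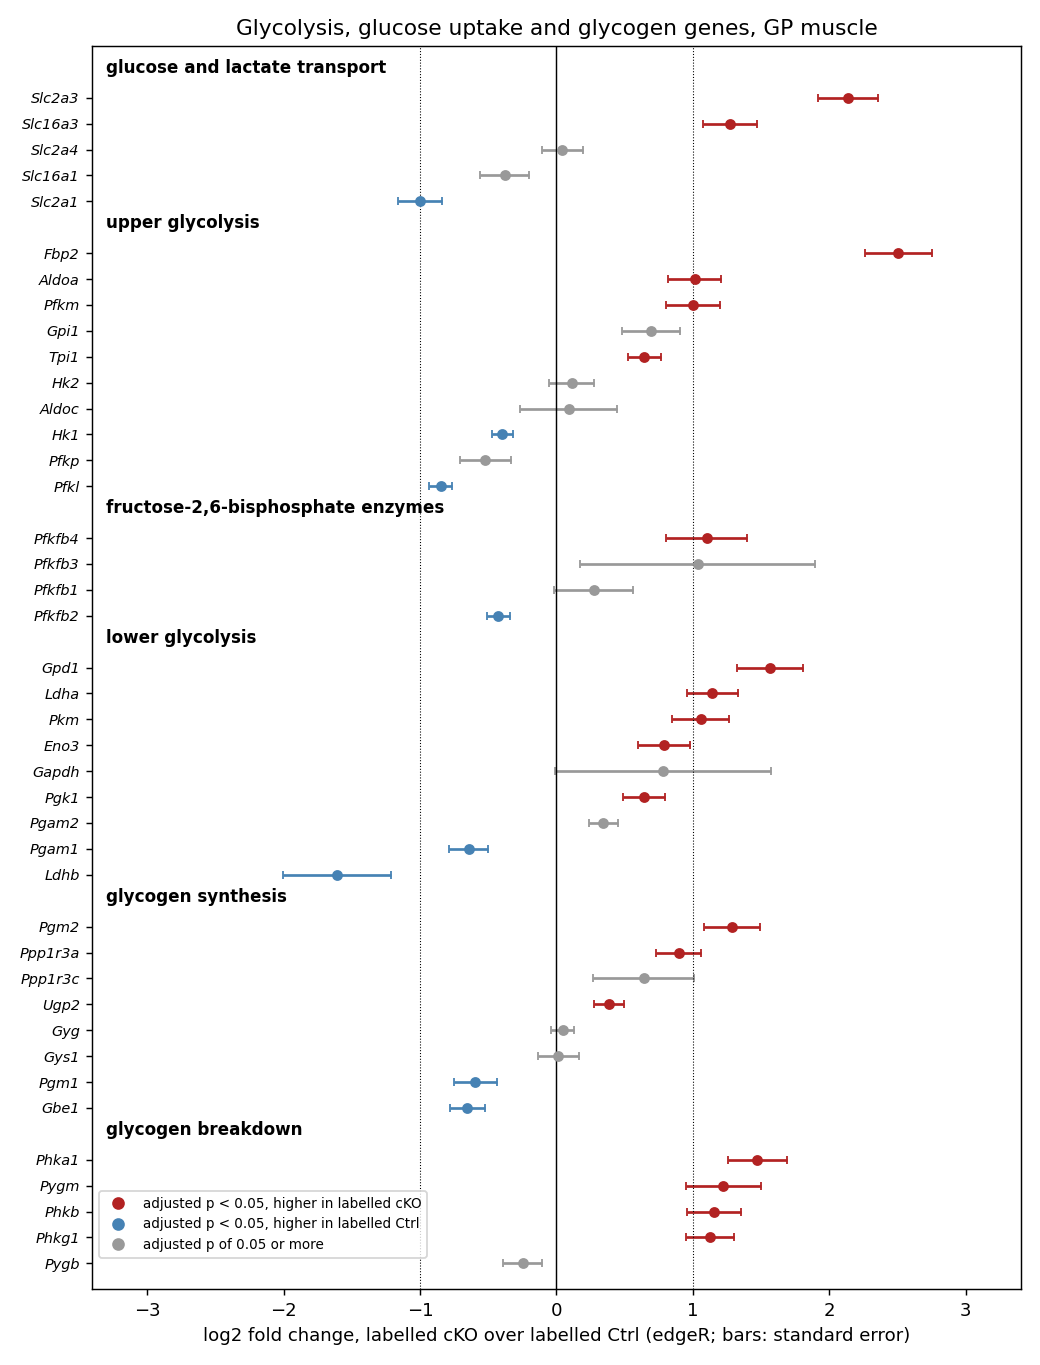
Log2 fold change (labelled cKO over labelled Ctrl, horizontal axis) of each of the 41 tested genes, grouped by role, with its standard error as a bar; dotted lines mark a fold change of 2. Glycogen breakdown holds 4 genes to the right of the right dotted line, and Ldhb lies farthest to the left at -1.61.

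To show the promoter sequence of genes that moved together, the 250 bases before each start in RefSeq's GRCm38.p6 table were searched on both strands for motifs bound by muscle transcription factors: MEF2, the E-box CANNTG bound by MyoD family proteins, and MCAT (CATTCC). Pgm1, Pgm2 and Eno1 were left out, because each symbol has also named another gene. The search then covered 36 of the 42 genes with 52 promoters. MEF2 was found in 3 of the 52 (5.77%: Pfkfb1, Pgam2 and Ppp1r3a) and in 2.92% of all 32851 promoters. An E-box was found in 37 of the 52 (71.2%) and in 66.2% of all promoters, and MCAT was found in 3 (5.77%: Aldoa, Aldoc and Eno3) and in 12.6% of all. The E-box form CACGTG, which is counted in the E-box total too, was found in 7 of the 52 (13.5%: Fbp2, Ldha, Pfkfb2, Pfkfb3, Pfkm, Ppp1r3c and Slc16a1) and in 6.02% of all. Promoters of genes higher in the cKO-labelled libraries held an E-box in 19 of 24 cases, and those of genes higher in the Ctrl-labelled libraries in 6 of 10. Some genes have several starts with overlapping windows, so a match can be counted more than once. By gene, an E-box was found for 13 of 16 and for 4 of 7. The 120 bases before the start are printed on the strand of each gene, with matches to MEF2, the E-box or MCAT in capitals, for 3 genes that rose (Ppp1r3a, Eno3 and Phka1), for Pgam2, which has a MEF2 match and did not pass the test, and for Ldhb, which fell and has no match in this window. The windows are Ppp1r3a chr6:14755275-14755394 (minus strand), Pgam2 chr11:5803797-5803916 (minus), Eno3 chr11:70657056-70657175 (plus), Phka1 chrX:102644247-102644366 (minus) and Ldhb chr6:142507958-142508077 (minus).
Ppp1r3a: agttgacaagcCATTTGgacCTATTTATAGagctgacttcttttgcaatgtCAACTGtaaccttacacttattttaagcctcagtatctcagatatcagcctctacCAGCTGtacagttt
Pgam2: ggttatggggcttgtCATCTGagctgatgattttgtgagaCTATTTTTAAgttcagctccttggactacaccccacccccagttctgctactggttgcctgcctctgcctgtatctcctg
Eno3: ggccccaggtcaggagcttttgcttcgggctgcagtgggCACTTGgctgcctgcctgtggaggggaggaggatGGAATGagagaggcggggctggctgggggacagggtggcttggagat
Phka1: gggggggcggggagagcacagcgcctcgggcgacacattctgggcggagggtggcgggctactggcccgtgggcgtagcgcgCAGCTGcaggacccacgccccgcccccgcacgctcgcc
Ldhb: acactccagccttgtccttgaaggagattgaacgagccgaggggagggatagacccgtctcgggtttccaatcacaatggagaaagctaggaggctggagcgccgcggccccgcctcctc
Ppp1r3a shows a MEF2 match flanked by E-boxes, whereas Eno3 pairs an E-box with MCAT read on the opposite strand. A match describes letters, not binding.

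Among the carriers, GLUT3 and the lactate exporter MCT4 were higher in the cKO-labelled libraries, and GLUT1 was lower. Slc2a3 (GLUT3, a high-affinity glucose carrier; chr6:122727809-122801640) was at 3.50, 5.82 and 3.34 CPM in the Ctrl-labelled libraries and at 19.95, 19.3 and 16.6 CPM in the cKO-labelled ones, with no overlap. Its log2 fold change was 2.14 (SE 0.22, adjusted p = 0.00222, edgeR), a 4.40-fold difference at a low level. Slc16a3 (MCT4, which exports lactate from glycolytic fibers) was at 130, 204 and 187 CPM against 493, 344 and 421 CPM (log2 fold change 1.27, SE 0.20, adjusted p = 0.00671, edgeR). Slc2a1 (GLUT1, the basal carrier of most cell types, endothelium included) was at 18.8, 20.8 and 23.5 CPM in the Ctrl-labelled libraries and at 13.0, 9.11 and 9.38 CPM in the cKO-labelled ones. All 3 latter values lay below the lowest of the former, and the log2 fold change was -1.0 (SE 0.16, adjusted p = 0.00722), at the fold limit of 2. Slc2a4 (GLUT4, the insulin-responsive carrier) was the most abundant of the glucose carriers, also per kilobase of exon, with 663, 702 and 508 CPM against 707, 559 and 664 CPM. The groups of GLUT4 overlapped, with a log2 fold change of 0.04 (SE 0.15, adjusted p = 0.857). Slc16a1 (MCT1, which takes lactate up in oxidative fibers) was at 84.9, 79.0 and 60.5 CPM against 45.3, 59.0 and 68.0 CPM and did not pass (log2 fold change -0.38, SE 0.18, adjusted p = 0.158), although it did when scaled by total counts alone (-0.63, adjusted p = 0.0442).

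In upper glycolysis, the steps from fructose 6-phosphate to triose phosphate rose in their muscle forms, while hexokinase 2 did not pass the test. Hk2, which traps glucose as its phosphate in muscle, was at 545, 630 and 571 CPM in the Ctrl-labelled libraries and at 690, 478 and 718 CPM in the cKO-labelled ones (log2 fold change 0.11, SE 0.16, adjusted p = 0.651). Pfkm, the muscle phosphofructokinase that commits sugar to glycolysis, was at 2360, 2893 and 3142 CPM against 6406, 4178 and 6209 CPM. The groups were separate, with a log2 fold change of 1.00 (SE 0.20, adjusted p = 0.0142, edgeR). Aldoa, the muscle aldolase and the most abundant of all 42 genes (chr7:126795234-126800751), was at 8708, 10445 and 11329 CPM against 23005, 16309 and 22219 CPM (log2 fold change 1.01, SE 0.19, adjusted p = 0.0121). Aldoa alone took 1.11% ± 0.129 of all counts in the Ctrl-labelled libraries and 1.86% ± 0.227 in the cKO-labelled ones (SD, n = 3). Tpi1, triose phosphate isomerase, was at 1231, 1486 and 1552 CPM against 2235, 2129 and 2299 CPM (log2 fold change 0.64, SE 0.12, adjusted p = 0.0117). Gpi1, the isomerase before phosphofructokinase, was at 840, 981 and 996 CPM against 1863, 1041 and 1656 CPM. Its groups did not overlap, but it missed the threshold (log2 fold change 0.69, SE 0.21, adjusted p = 0.0528). It passed with no filter, with DESeq2's Wald test and with the library labelled cKO 2 left out. Without the library labelled cKO 3 the calls of Pfkm, Aldoa and Tpi1 were lost, that of Pfkm also without Ctrl 1 or Ctrl 2, with adjusted p of at most 0.0556, 0.0564 and 0.0517. The call of Aldoa was also lost with the mouse number as a replicate block.

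The steepest difference of all 42 genes belonged to an enzyme that runs against glycolysis. Fbp2, the muscle fructose bisphosphatase, which removes the phosphate that phosphofructokinase adds (chr13:62836877-62858422, minus strand), was at 9.78, 13.4 and 16.0 CPM in the Ctrl-labelled libraries. It reached 87.0, 52.3 and 83.1 CPM in the cKO-labelled ones, with a log2 fold change of 2.50 (SE 0.25, adjusted p = 0.00195, edgeR), or 5.68-fold. Its level stayed well under that of Pfkm in every library. Isoforms of other tissues, Pfkl and Hk1, went the other way. Pfkl, the liver phosphofructokinase, was at 20.5, 22.6 and 20.4 CPM against 12.3, 11.7 and 11.3 CPM (log2 fold change -0.85, SE 0.09, adjusted p = 0.00219). Hk1, the hexokinase of brain and blood cells, was at 16.7, 16.8 and 16.2 CPM against 12.8, 12.5 and 12.4 CPM (log2 fold change -0.40, SE 0.08, adjusted p = 0.0123). Both were lower in each library labelled cKO than in any labelled Ctrl, although Hk1 lost its call without Ctrl 1, Ctrl 2 or cKO 3 (adjusted p of at most 0.0512). Pfkp, the platelet form, was at 9.00 to 13.3 CPM against 6.66 to 8.83 CPM and did not pass (log2 fold change -0.52, SE 0.19, adjusted p = 0.0876), although it did with total counts (adjusted p = 0.0317) and without cKO 2 (adjusted p = 0.0442). Aldoc, the brain aldolase, stayed under 1 CPM in every library.

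Enzymes that set fructose 2,6-bisphosphate, the activator of phosphofructokinase, differed in direction from one another. Pfkfb4 was at 29.4, 49.1 and 42 CPM in the Ctrl-labelled libraries and at 108, 51.8 and 98.8 CPM in the cKO-labelled ones. The library labelled cKO 2 lay just above the highest labelled Ctrl, and the log2 fold change was 1.10 (SE 0.30, adjusted p = 0.0356). Leaving out 1 library ended this call in 5 of 6 cases, the library labelled cKO 2 being the exception, with an adjusted p of at most 0.110. The robust fit and the replicate block ended it too. Pfkfb2 was lower, with 33.2, 32.6 and 29.5 CPM against 22.2, 24.8 and 24.0 CPM (log2 fold change -0.42, SE 0.08, adjusted p = 0.0131, up to 0.0551 without Ctrl 1 or Ctrl 2). Pfkfb1, the liver and muscle form, overlapped between the groups, at 49.3, 52.8 and 25.7 CPM against 55.1, 37.8 and 61.5 CPM (adjusted p = 0.522). Pfkfb3, the form with the highest ratio of kinase to bisphosphatase activity, varied widely within each group, at 38.8, 46.7 and 314 CPM against 119, 473 and 226 CPM. The library labelled Ctrl 3 had more Pfkfb3 than 2 of the 3 cKO-labelled libraries, and the log2 fold change was 1.03 (SE 0.86, adjusted p = 0.411). It was 2.67 (adjusted p = 0.0243) without the library labelled Ctrl 3 and 0.37 (adjusted p = 0.789) without cKO 2.

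**Figure D2:**
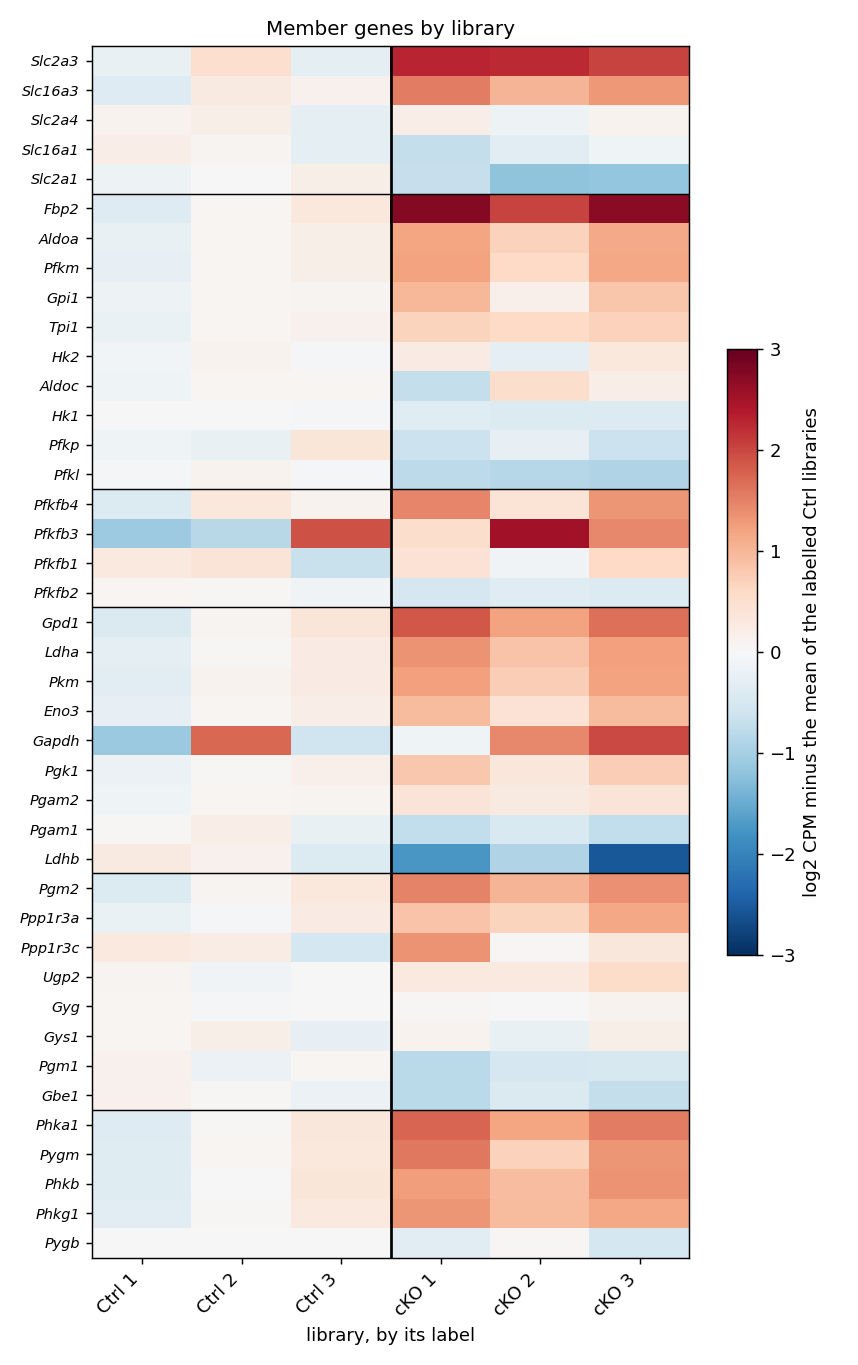
Each row is one of the 41 tested genes, ordered as in the plot of fold changes, and each column is a library under its label; color gives log2 CPM minus the mean log2 CPM of the Ctrl-labelled libraries. Slc2a3 and Fbp2 lie well above that mean in all 3 cKO-labelled libraries, Ldhb is below it there, and Pfkfb3 and Gapdh differ as much within a group as between groups.

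In lower glycolysis and its side branches, Pgk1, Eno3, Pkm, Ldha and Gpd1 rose, and Ldhb and Pgam1 fell. Ldha, whose subunit favors lactate formation, was at 1278, 1597 and 1865 CPM in the Ctrl-labelled libraries and at 3972, 2822 and 3666 CPM in the cKO-labelled ones (log2 fold change 1.14, SE 0.19, adjusted p = 0.00777). Ldhb, whose subunit is typical of heart and slow fibers (chr6:142490249-142507957, minus strand), was at 894, 807 and 553 CPM against 221, 392 and 126 CPM. The groups of both genes were separate and lay in opposite order, and for Ldhb the log2 fold change was -1.61 (SE 0.40, adjusted p = 0.0268), or 3.05-fold lower. The Ldhb call was lost without the library labelled Ctrl 1, Ctrl 2 or cKO 1, with an adjusted p of at most 0.0930.

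Gpd1, the cytosolic enzyme that makes glycerol 3-phosphate and passes electrons toward mitochondria, was at 240, 343 and 414 CPM in the Ctrl-labelled libraries and at 1179, 748 and 1019 CPM in the cKO-labelled ones (log2 fold change 1.56, SE 0.24, adjusted p = 0.00632). Pkm, pyruvate kinase, was at 1939, 2640 and 2953 CPM against 5791, 4140 and 5728 CPM (log2 fold change 1.06, SE 0.21, adjusted p = 0.0128). These counts do not separate the M1 and M2 splice forms of Pkm. Eno3, the muscle enolase, was at 3343, 4099 and 4537 CPM against 7631, 5375 and 7637 CPM (log2 fold change 0.79, SE 0.19, adjusted p = 0.0258). Pgk1, the first step that yields ATP, was at 522, 601 and 653 CPM against 1039, 744 and 991 CPM (log2 fold change 0.64, SE 0.15, adjusted p = 0.0246). Eno3 and Pgk1 each lost the call in 4 of the 6 fits without one library (Ctrl 1, Ctrl 2, cKO 1 or cKO 3), with adjusted p of at most 0.0953 and 0.0852. Pgam2, the muscle phosphoglycerate mutase, was at 1094, 1254 and 1280 CPM against 1587, 1446 and 1573 CPM and fell short of the threshold (log2 fold change 0.34, SE 0.11, adjusted p = 0.0547). It passed with DESeq2's Wald test (adjusted p = 0.00573), and its log2 fold change was 0.088 with total counts. Its non-muscle partner Pgam1 was lower, at 16.3, 18.4 and 13.6 CPM against 9.62, 11.7 and 9.61 CPM (log2 fold change -0.64, SE 0.14, adjusted p = 0.0185). Pgam1 lost its call without the same libraries as Eno3 and Pgk1, and Pkm without cKO 3, with adjusted p of at most 0.0688 and 0.0504.

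Gapdh cannot be read as a level of the muscle enzyme in these files. It was listed at 7.20, 51.4 and 10.4 CPM in the Ctrl-labelled libraries and at 14.3, 43.0 and 61.7 CPM in the cKO-labelled ones, far below its neighbors Tpi1 and Pgk1, also per kilobase of exon. In the annotated transcripts of GENCODE M21, 55.5% of the 75-base windows of Gapdh also occur in transcripts of 121 other genes. The same share was 67.5% for Pgk1, 40.6% for Pgam1 and 44.3% for Eno1, whose copy Eno1b had 31 to 61 counts per library, and 22 of the 42 genes share no window. How reads with several matches were counted is not given in the sources used here, and its part in these values was not tested. Without Gapdh, Pgk1 and Pgam1, 18 of 38 genes rose, 7 fell and the median log2 fold change was again 0.64. By their names in GENCODE M21, another 7 of the 42 (Gpi1, Pfkp, Pfkfb2, Pkm, Gpd1, Pgm1 and Phkg1) have 10% or more of their exon bases inside another gene. The share is largest in Pfkfb2 (27.8%) and Phkg1 (26.5%), and without a stated strand setting such reads cannot be told apart. The gene that GENCODE M21 names Pgm1 may be listed as Pgm2 in the counts. It is therefore not settled whether this overlap concerns the listed Pgm1 or the listed Pgm2.

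Of the glycogen synthesis genes, the synthase and glycogenin did not pass the test, Pgm2 and Ugp2, which supply the substrate, were higher in the cKO-labelled libraries, and the branching enzyme was lower. Gys1, muscle glycogen synthase, was at 730, 786 and 593 CPM in the Ctrl-labelled libraries and at 751, 594 and 784 CPM in the cKO-labelled ones (log2 fold change 0.01, SE 0.15, adjusted p = 0.957). Gyg, glycogenin, the protein that primes the chain, was at 465, 428 and 447 CPM against 460, 441 and 483 CPM (log2 fold change 0.05, SE 0.08, adjusted p = 0.716). The groups of both overlapped, as did those of Ppp1r3c, a glycogen-targeting subunit of protein phosphatase 1, at 932, 888 and 525 CPM against 1930, 770 and 956 CPM (adjusted p = 0.242). Pgm2, a phosphoglucomutase that links glucose 1- and 6-phosphate, was at 533, 748 and 873 CPM against 1984, 1436 and 1833 CPM (log2 fold change 1.29, SE 0.21, adjusted p = 0.00732). The second listed phosphoglucomutase, Pgm1, was a minor transcript at 5.62, 4.56 and 5.36 CPM against 2.94, 3.66 and 3.68 CPM (log2 fold change -0.59, SE 0.15, adjusted p = 0.0322), and lost its call without any 1 library but cKO 2 (adjusted p of at most 0.110). The symbols Pgm1 and Pgm2 of mouse were exchanged between nomenclature releases, so each is given as the files list it, without a position. Ugp2, which makes the UDP-glucose that synthase uses, was at 644, 562 and 614 CPM against 737, 746 and 893 CPM (log2 fold change 0.38, SE 0.11, adjusted p = 0.0461). Its call was lost in each of the 6 fits without one library and with the replicate block. Total counts ended it too, with a log2 fold change of 0.13 and the highest adjusted p of all alternatives (0.413, edgeR).

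Ppp1r3a, the main subunit that targets protein phosphatase 1 to glycogen in striated muscle and whose promoter carries the MEF2 match printed above, was at 194, 214 and 265 CPM in the Ctrl-labelled libraries. In the cKO-labelled ones it was at 403, 353 and 497 CPM, a log2 fold change of 0.90 (SE 0.16, adjusted p = 0.0106). Gbe1, the branching enzyme, went down, from 125, 117 and 99.4 CPM to 64.5, 83.7 and 68.4 CPM (log2 fold change -0.65, SE 0.13, adjusted p = 0.0131, up to 0.0548 without cKO 3).

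Of the 5 glycogen breakdown genes, 4 rose, with a median log2 fold change of 1.16 over the 5. Pygm, the muscle glycogen phosphorylase (chr19:6384399-6398459), was at 4471, 6018 and 7240 CPM in the Ctrl-labelled libraries and at 17451, 9357 and 14562 CPM in the cKO-labelled ones. The difference exceeded the spread in each group (log2 fold change 1.22, SE 0.28, adjusted p = 0.0205), although the call was lost without the library labelled Ctrl 1, Ctrl 2, cKO 1 or cKO 3, with an adjusted p of at most 0.0692. All 3 listed subunits of phosphorylase kinase, which switches Pygm on, rose. Phka1, its muscle regulatory subunit (chrX:102513975-102644246, minus strand), was at 342, 462 and 570 CPM against 1493, 1018 and 1301 CPM (log2 fold change 1.47, SE 0.22, adjusted p = 0.00566). Phkb, the shared regulatory subunit, was at 258, 328 and 427 CPM against 790, 631 and 836 CPM (log2 fold change 1.16, SE 0.20, adjusted p = 0.00870). Phkg1, the muscle catalytic subunit, was at 213, 275 and 326 CPM against 664, 516 and 596 CPM (log2 fold change 1.12, SE 0.17, adjusted p = 0.00640). Each kinase subunit kept its call under all 13 alternatives that test for any difference. The subunits of other tissues did not pass, with Phka2 at 10.3 to 11.2 CPM against 10.2 to 11.4 CPM (adjusted p = 0.997) and Phkg2 at 5.33 to 6.35 CPM against 4.75 to 5.42 CPM (adjusted p = 0.335). Pygb, the brain phosphorylase, was at 13.0, 12.8 and 12.9 CPM against 10.4, 13.2 and 9.00 CPM (log2 fold change -0.25, SE 0.14, adjusted p = 0.246), and passed only without cKO 2 (-0.43, adjusted p = 0.0311).

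Isoform shares, computed within each library from counts per kilobase of exon and so free of library scaling, moved most for lactate. Ldhb made up 50.4%, 42.3% and 30.1% of lactate dehydrogenase (Ldha plus Ldhb) in the Ctrl-labelled libraries and 7.47%, 16.8% and 4.75% in the cKO-labelled ones. The mean was 40.9% ± 10.2 against 9.67% ± 6.31 (SD, n = 3, p = 0.1 by an exact permutation test, two-sided, which cannot go lower for 3 against 3). Slc16a1 made up 39.6%, 28.0% and 24.6% of the listed lactate carriers (Slc16a1 plus Slc16a3) against 8.46%, 14.7% and 14.0%, again without overlap (exact permutation p = 0.1), although the level of Slc16a1 itself passed only with total counts. A form that already held over 96% of its family could rise by only a few percentage points, although it could fall by more. Hk2 held 96.8% ± 0.214 of Hk1 plus Hk2 against 97.7% ± 0.534, Pfkm 99.1% ± 0.0847 of the phosphofructokinases against 99.7% ± 0.0848, and Pgam2 99.4% ± 0.112 of the mutases against 99.7% ± 0.0546 (SD, n = 3, exact permutation p = 0.1 for each). Pygb made up 0.166% ± 0.0421 of phosphorylase against 0.0642% ± 0.0341 (SD, n = 3), while Pygm rose and the CPM of Pygb overlapped between the groups. Aldoa held 99.9975% ± 0.000165 of Aldoa plus Aldoc against 99.9986% ± 0.000788. For glucose carriers, Slc2a4 held 96.7% ± 0.803 of Slc2a1, Slc2a3 and Slc2a4 against 96.6% ± 0.416 (SD, n = 3, exact permutation p = 1.0). Shares within the Pfkfb family overlapped, with Pfkfb1 at 38.0% ± 20.6 against 25.4% ± 9.17 (exact permutation p = 0.4) and Pfkfb3 at 31.9% ± 28.8 against 44.7% ± 22.2 (SD, n = 3, exact permutation p = 0.5). Single libraries decided both differences. That of Pfkfb3, 12.8 percentage points, was 29.4 without Ctrl 3, 22.3 without cKO 1, 4.43 without Ctrl 1, 4.53 without Ctrl 2 and 0.58 without cKO 2. That of Pfkfb1, -12.6 percentage points, was -24.4 without Ctrl 3, -5.41 without Ctrl 1, -7.99 without Ctrl 2 and -7.38 without cKO 2. The share of Eno3 was not read, because Eno1 was at or near 0 in every library.

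**Figure D3:**
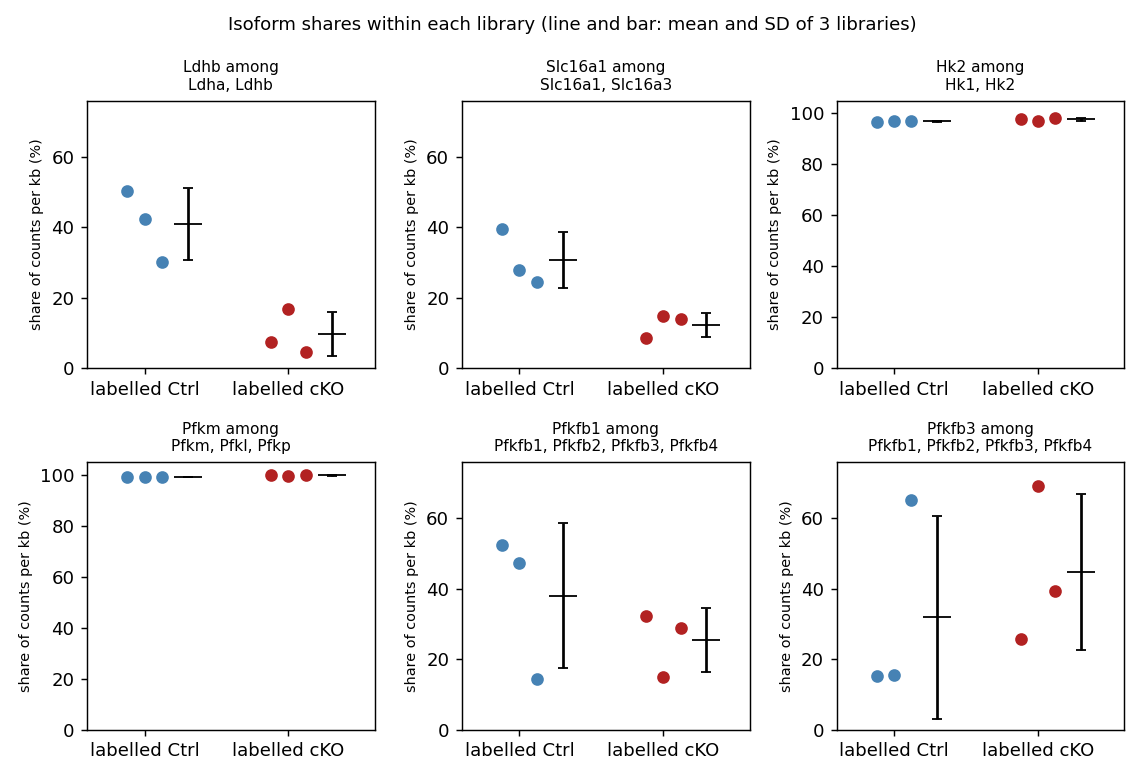
Share of one isoform in its family (percent of counts per kilobase, vertical axis) in each library labelled Ctrl (blue) and cKO (red), with the mean and SD of 3 libraries as a line and bar. Ldhb and Slc16a1 shares separate the groups, from 40.9% to 9.67% and from 30.7% to 12.4%, Hk2 and Pfkm stay above 96%, and Pfkfb1 and Pfkfb3 overlap.

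Level and direction went together among these genes, on the scale of CPM per kilobase of exon averaged over the groups and without Pgm1 and Pgm2. The 18 genes higher in the cKO-labelled libraries had a median level of 237, from 2.88 for Slc2a3 to 8408 for Aldoa, and 13 of them lay above 100. The 7 genes higher in the Ctrl-labelled libraries had a median of 5.51, from 3.01 for Hk1 to 382 for Ldhb, and 5 of them lay below 20. Ldhb is the exception among those that fell, with a level near that of Pgk1 (415), and Slc2a3 and Pfkfb4 (18.1) are the exceptions among those that rose. The 14 genes that did not pass had a median of 72.3, and include Pgam2 (1634), the fourth most abundant after Aldoa, Eno3 (3472) and Pygm (3427). Together the 42 genes took 3.68%, 4.33% and 4.66% of all counts in the Ctrl-labelled libraries and 7.27%, 5.65% and 7.07% in the cKO-labelled ones.

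**Figure D4:**
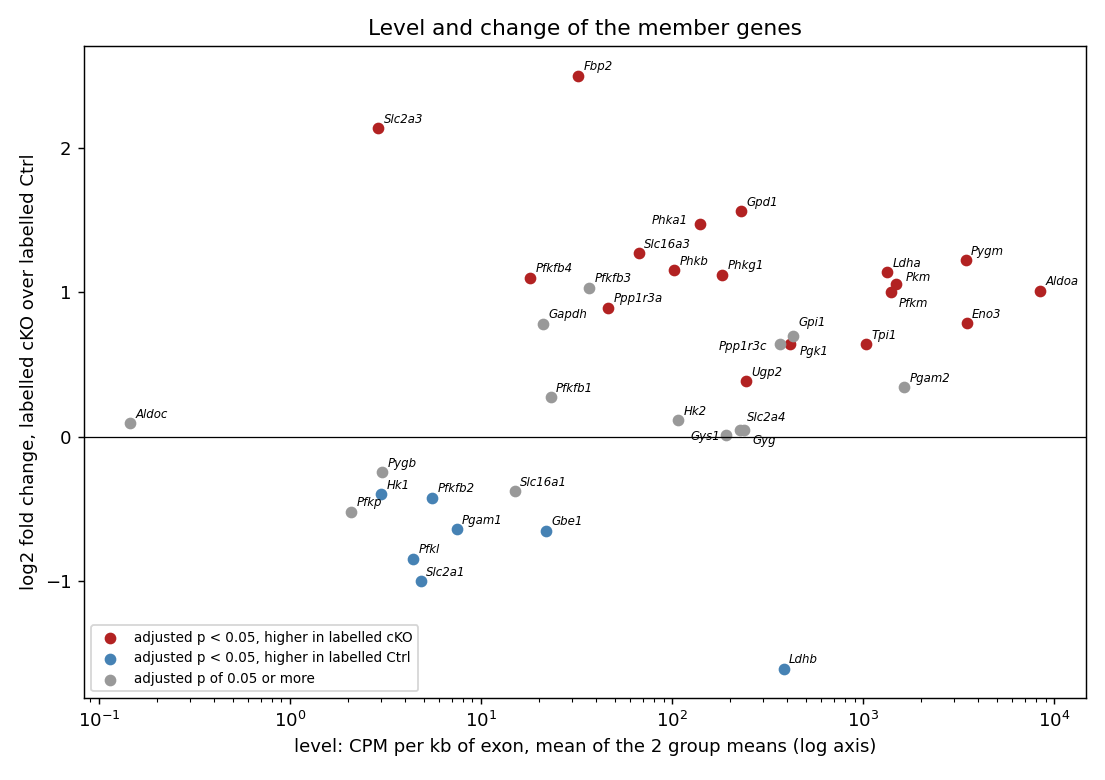
Level (CPM per kilobase of exon, mean of the 2 group means, log axis) against log2 fold change (labelled cKO over labelled Ctrl) for the 39 tested genes other than Pgm1 and Pgm2. Genes that rose lie mostly to the upper right, from Phkb (102) to Aldoa (8408), and those that fell lie at the lower left except Ldhb.

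Genes that rose also shared an order of the libraries within each group, a pattern described after the values were seen. In 15 of the 19 (78.9%) the library labelled Ctrl 1 was lowest and Ctrl 3 highest of the Ctrl-labelled libraries and cKO 2 was lowest of its group, as for Pygm, Phka1, Gpd1, Ldha and Aldoa. The same order was found in 8.65% of all genes tested and in 26.3% of all genes called higher in the cKO-labelled libraries. It was also that of 7 of the 10 fast-fiber markers named below. Among the 8 genes higher in the Ctrl-labelled libraries, 1 had that order.

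Markers of fiber types moved with these genes. The 10 fast-fiber markers were Myh4, Mylpf, Tnni2, Tnnt3, Tnnc2, Actn3, Atp2a1, Casq1, Pvalb and Mybpc2. They were listed for type IIb fibers, but several are expressed in other fast fibers too. All 10 passed the test as higher in the cKO-labelled libraries, where their summed level was 161602 to 206100 CPM against 63216 to 104310 CPM. Myh4, the IIb myosin, was at 15349, 24649 and 36565 CPM in the Ctrl-labelled libraries and at 80134, 57352 and 72862 CPM in the cKO-labelled ones (log2 fold change 1.46, SE 0.33, adjusted p = 0.0213). As a share of all counts, the 10 fast-fiber markers took 9.20% ± 2.12 against 16.9% ± 0.981 (SD, n = 3). All 12 type I markers had negative fold changes, 6 of which passed, with a summed level of 9490 to 16037 CPM against 611 to 4219 CPM. Myh7, the slow myosin, did not pass (log2 fold change -2.30, SE 0.79, adjusted p = 0.0742), whereas Myh2 (-1.23, adjusted p = 0.0392) and Myh1 (-0.93, adjusted p = 0.0341), the IIa and IIx myosins, were lower. In whole muscle, more fibers of a type cannot be told apart from more RNA per fiber, and the part of fiber type in the differences of the 42 genes was not tested.

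Markers of other cell types had summed levels far below those of the fast-fiber markers. Macrophage and immune markers, 7 of 9 of them lower in the cKO-labelled libraries, summed to 181 to 195 CPM in the Ctrl-labelled libraries and to 89.1 to 116 CPM in the cKO-labelled ones, in the same direction as Pfkl, Hk1, Pgam1 and Slc2a1. Endothelial markers summed to 491 to 504 CPM against 441 to 470 CPM, with 1 of 8 lower. Schwann cell markers summed to 104 to 160 CPM against 55.5 to 104 CPM (1 of 6 lower), fibro-adipogenic progenitor markers to 1094 to 1307 CPM against 781 to 1318 CPM (2 of 6 lower), adipocyte markers to 14.2 to 48.4 CPM against 16.4 to 50.1 CPM (0 of 5 called) and satellite cell markers to 9.35 to 9.76 CPM against 9.18 to 11.9 CPM (0 of 5 called). Of 8 erythroid markers, 6, including the globins Hba-a1 and Hbb-bs, were listed at 0 in every library, whereas Alas2, the heme synthesis enzyme of red cell precursors, was at 3.97 to 8.76 CPM. As with Gapdh and Eno1, the counting settings are not given, so a globin count of 0 was not read as an absence of blood. The part of these cells in the lower levels of Pfkl, Hk1, Pgam1 and Slc2a1 was not tested.

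Other genes of glucose metabolism gave a mixed picture. Of 76 further genes listed for glucose transport, glycolysis, pyruvate entry, glycogen and energy sensing, 67 were tested, 18 were higher in the cKO-labelled libraries and 8 were higher in the Ctrl-labelled ones, against 12.6% and 11.8% of all genes, with a median log2 fold change of 0.03. The 8 lower genes are near the share of all genes. Scaling by total counts, which lowers the fold changes of all genes alike, gave 10 higher against 4.75% of all genes and 16 lower against 28.7%. Leaving out single libraries also moved these counts, as given in the closing section. By role, 0 higher and 2 lower of 11 passed for other glucose transport and phosphorylation, 5 and 1 of 10 for other glycolytic enzymes, 2 and 1 of 13 for pyruvate entry, 5 and 0 of 16 for other glycogen genes, and 6 and 4 of 17 for AMPK and the hexosamine and pentose branches. Gpd2, the mitochondrial partner of Gpd1 in the glycerol phosphate shuttle, was at 51.4, 75 and 122 CPM in the Ctrl-labelled libraries and at 344, 230 and 302 CPM in the cKO-labelled ones (log2 fold change 1.82, SE 0.31, adjusted p = 0.00860). Both enzymes of that shuttle were thus higher by more than 2-fold. Tigar, which lowers fructose 2,6-bisphosphate, rose from 75.7, 97.7 and 101 CPM to 202, 194 and 239 CPM (log2 fold change 1.21, SE 0.14, adjusted p = 0.00285). Pgm2l1, which makes the glucose 1,6-bisphosphate that phosphoglucomutase needs, rose from 17.7, 18.9 and 20.5 CPM to 44.0, 35.9 and 51.9 CPM (log2 fold change 1.21, SE 0.14, adjusted p = 0.00315). Among subunits of AMPK, the energy sensor that promotes glucose uptake, the muscle forms Prkab2 (log2 fold change 1.24, adjusted p = 0.0117) and Prkag3 (1.02, adjusted p = 0.0208) rose by over 2-fold. Its catalytic forms went in opposite directions, Prkaa2, the main one of muscle, from 187, 178 and 210 CPM to 327, 299 and 326 CPM (log2 fold change 0.73, adjusted p = 0.00394) and the rarer Prkaa1 from 28.7, 29.9 and 32.2 CPM to 19.8, 22.4 and 20.4 CPM (-0.54, adjusted p = 0.00691). Ppp1r3e, a further glycogen-targeting subunit, was higher (1.59, adjusted p = 0.0481) at under 3 CPM in every library. The remaining genes past 2-fold were rare and lower, Slc2a6 (GLUT6, -1.89, adjusted p = 0.0291) and Eno2, the neuronal enolase (-1.06, adjusted p = 0.0181), both under 2 CPM in every library. At the entry of pyruvate into mitochondria, the pyruvate dehydrogenase subunits did not pass: Pdha1 was at 555 to 679 CPM against 549 to 636 CPM (log2 fold change -0.08, SE 0.11) and Pdhb at 262 to 280 CPM against 262 to 293 CPM (0.03, SE 0.08).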

How the data were processed

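The data are bulk RNA-Seq counts of GP muscle, with 3 Ctrl-labelled and 3 cKO-labelled libraries. The authors deposited whole-number counts per gene without normalization. Per the submitters' processing notes, reads were checked with FastQC 0.11.8, trimmed with Trimmomatic 0.39, aligned with HISAT2 2.1.0 to mm10 and counted with featureCounts 1.6.2. The annotation, strand setting and treatment of multiply matching reads are not given in the sources used here. Counts of genes with close copies are uncertain for that reason.

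For testing, edgeR 4.0.16 was run in R 4.3.3 (TMM factors, filterByExpr, estimateDisp, glmQLFit, glmQLFTest, Benjamini-Hochberg adjustment over all 14180 genes). Standard errors were derived from the F statistic. TMM factors were 1.08 to 1.11 in the Ctrl-labelled libraries and 0.865 to 0.983 in the cKO-labelled ones. Exact permutation tests, two-sided, compared isoform shares. The study's methods require a fold change over 2 beside an adjusted p under 0.05, so calls are given with and without that limit. The edgeR step was also run on simulated counts, with an outcome that is not given here. Positions come from GENCODE M21 (GRCm38), and promoters from RefSeq (GRCm38.p6). The labels number the mice, so each library was taken as 1 mouse, and the p-values weigh a group difference against the spread between mice. Over all genes tested together, that spread exceeded counting noise in every pair of libraries of a group. For genes with few counts, such as Aldoc with 9 to 23 counts per library, this need not hold.

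Every member that passed the test was to be named, and other pathway genes only past 2-fold; Phka2, Phkg2, Prkaa1, Prkaa2, Pdha1 and Pdhb were named after their values were seen. The 42 genes and all gene lists were chosen with earlier results of these data known. DESeq2 1.42.0 and the other alternatives are given in the closing section.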

Additional observations from a re-analysis of the deposited data

How the results depend on the processing

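No result for the 27 genes called among the 42 changed direction under 13 alternatives that test for any difference, and 12 of them passed under each: Slc2a1, Slc2a3, Slc16a3, Pfkl, Fbp2, Ldha, Gpd1, Pgm2, Ppp1r3a, Phka1, Phkb and Phkg1. Another 7 of the 27 were lost only where a library was left out, so that 19 were kept by every one of the 13 that used all libraries.

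Scaled by total counts alone, 6 genes (against 14) were past 2-fold and higher in the cKO-labelled libraries, the median log2 fold change was 0.38 (against 0.64), and 10 (against 18) and 16 (against 8) of the other pathway genes passed as higher and lower. All genes tested then gave 673 calls higher in the cKO-labelled libraries and 4074 in the Ctrl-labelled ones, against 1786 and 1668. Log2 fold changes of 5 genes that did not pass turned below 0 with total counts: Slc2a4 to -0.22, Hk2 to -0.15, Aldoc to -0.15, Gys1 to -0.25 and Gyg to -0.21. The call of Ugp2 was lost with total counts. Calls were gained by Slc16a1 and Pfkp with total counts, Gpi1 with no filter, Gpi1 and Pgam2 with DESeq2's Wald test, Pfkfb3 without Ctrl 3, and Gpi1, Pfkp and Pygb without cKO 2. Past 2-fold in the Ctrl-labelled libraries, 1 gene (against 2) passed with DESeq2's size factors, with no filter and with DESeq2's Wald test (3.88%, 3.01% and 3.1% of all genes) and with each library left out in turn. A stricter test against a fold change of 1.2 (glmTreat), not among the 13, also used all libraries, and in it 15 genes were higher and 3 (against 8) lower, with 4.77% and 5.24% of all genes.

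The mouse numbers did not pair the libraries: correlations of same-numbered libraries were 0.0835, -0.215 and -0.00201. With the number as a replicate block, 13 of the 42 genes were higher in the cKO-labelled libraries and 6 lower (6.54% and 6.85% of all genes), and 10 (against 18) of the other pathway genes were higher. The block ended the calls of Aldoa, Pfkfb4, Pgk1, Eno3, Ugp2 and Pygm among the higher genes and of Hk1 and Pgm1 among the lower ones. All genes tested gave 927 and 972 calls under the block.

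Leaving out each library in turn gave 10 to 19 genes higher in the cKO-labelled libraries (10 without cKO 3) and 3 to 10 lower (3 without Ctrl 1 or Ctrl 2, 5 without cKO 1, 4 without cKO 3), while the share of all genes called ran from 5.33% to 12.3% higher and from 5.46% to 12.5% lower. Past 2-fold it gave 7 to 15 higher (7 without Ctrl 1, 9 without cKO 1 or cKO 3) and 1 lower, with 1.2% to 2.69% and 2.75% to 4.75% of all genes. The other pathway genes gave 9 to 19 higher (10 without Ctrl 1, 9 without Ctrl 2 or cKO 1) and 3 to 9 lower (3 without Ctrl 1, 5 without cKO 3), and the median log2 fold change ran from 0.44 (without Ctrl 3) to 0.66. The difference in Slc2a4 share, -0.012 percentage points, ran from -0.47 to 0.29. The log2 fold changes of 5 genes that did not pass crossed 0: Slc2a4 ran from -0.083 to 0.14 (below 0 without Ctrl 3 or cKO 1), Gys1 from -0.093 to 0.11 (below 0 without Ctrl 3, cKO 1 or cKO 3), Aldoc from -0.19 to 0.34 (below 0 without cKO 2), Hk2 from -0.010 to 0.26 and Gyg from -0.0022 to 0.078 (both below 0 without cKO 3). Apart from the fewer libraries in these fits, the cause was not tested.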
